A study of Mus musculus with 12 samples.

Results

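The genes described here encode enzymes and membrane proteins of the lysosome, the acidic compartment in which cells break down proteins, sugars and lipids. They were chosen by symbol from a list of 32 genes, and 31 of the 32 symbols were among the 22609 genes of the count tables. Tfeb, a regulator of lysosomal genes, was not listed under that symbol. Its older symbol Tcfeb was, and that row is described apart from the 31. RNAseq was done on adherent neural stem (ANS) cells, a culture grown from the brain of E14.5 mouse embryos. The cells were differentiated in vitro towards GABAergic neurons. By the study's account the brains were normal, and column names in the deposited files mark the libraries as wt. The strain is not given in the sources used here. T0 cells (n = 3) proliferated in growth medium with 20 ng/ml FGF2 and 20 ng/ml EGF. T1 cells (n = 3) had been kept for 2 days in medium D1, with 10 ng/ml FGF and 2 ng/ml EGF. T2 cells (n = 4) had then been kept for 2 days in medium B, with 10 ng/ml FGF2 and 20 ng/ml BDNF and without EGF, and T3 cells (n = 2) for 10 days in medium B. By the study's methods, cells were also dissociated and seeded again on laminin when moved to medium B. Medium, reseeding, substrate and time changed together, so their parts cannot be told apart.

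Most soluble lysosomal enzymes are made in the endoplasmic reticulum, tagged with mannose 6-phosphate in the Golgi and carried to the lysosome by receptors that recognise the tag. The proton pump V-ATPase acidifies the compartment, and glycosylated proteins such as LAMP1 and LAMP2 line its membrane. Many of the genes are targets of the transcription factor TFEB and its relatives TFE3 and MITF, which bind a short palindromic sequence with an E-box core (the CLEAR element) and are held in the cytoplasm by mTORC1 kinase activity when nutrients are plentiful. Inherited loss of single enzymes gives lysosomal storage diseases, many of which damage neurons, and progranulin and several of the genes here are known from such diseases.

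The letters of that element were looked for in the promoters. They were not used to choose the genes here, but many lysosomal genes are known targets. An excess of the letters is therefore not an independent result. A promoter from RefSeq (GRCm38.p6, 250 bases before to 50 bases after the transcription start) was found for 29 of the 31 genes, all but Ctsb and Npc1. The core CACGTG, which reads the same on both strands, was present in 12 of the 29 (41.4%), against 8.09% of 27025 genes in the table and 11.9% of the 8828 genes that were also tested at T1. The longer TCACGTGA, which contains it, was present in 5 of the 29 (17.2%, against 1.12% and 2.27%), and that with a further G before and C after it, which contains both, in 1, Cln3 (3.45%, against 0.37% and 0.838%). The following are the 5 promoters with the longer match and 4 promoters of genes that changed, as windows of 30 bases on the strand of the gene, with the matched letters in capitals.
Ctsa (chr2:164833749-164833778, plus strand): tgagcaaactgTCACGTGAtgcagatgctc
Ctsd (chr7:142387908-142387937, minus strand): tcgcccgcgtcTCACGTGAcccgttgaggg
Gla (chrX:134601215-134601244, minus strand): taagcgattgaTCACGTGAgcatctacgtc
Mcoln1 (chr8:3500462-3500491, plus strand): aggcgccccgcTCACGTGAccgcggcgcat
Cln3 (chr7:126583340-126583369, minus strand): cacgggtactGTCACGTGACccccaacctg
Lamp1 (chr8:13159088-13159117, plus strand): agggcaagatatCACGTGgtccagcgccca
Ctsl (chr13:64370739-64370768, minus strand): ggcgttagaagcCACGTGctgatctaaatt
Sgsh (chr11:119355522-119355551, minus strand): gggcctgccgtgCACGTGaccgtggggagc
Glb1 (chr9:114401018-114401047, plus strand): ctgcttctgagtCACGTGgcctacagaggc

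Lamp1 held 4 copies of the core, the most of the 29 promoters, and Ctsa and Gla held 2 copies of TCACGTGA each. Ctsf, Gaa and Naglu held a single core. As described below, promoters with the core belonged to genes that rose (Lamp1, Ctsd, Ctsl, Sgsh), to a gene that fell (Glb1) and to genes that were not called (such as Ctsa and Gla). A match of letters does not show that a factor binds there, and a window without them says nothing about the factor.

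**Figure D1:**
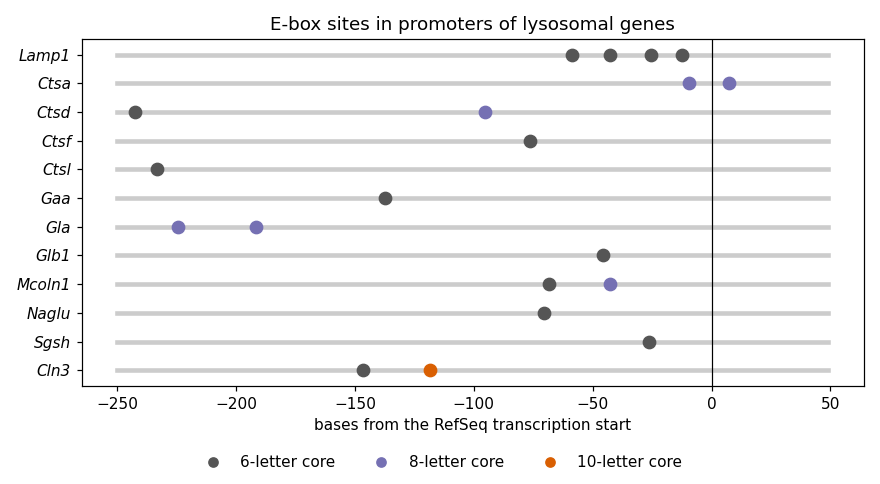
E-box sites in the 12 promoters that held the core CACGTG, by gene (vertical axis) and distance of the centre of the match from the RefSeq transcription start in bases (horizontal axis; grey bars span the 250 bases before to 50 bases after it). Grey points are matches to the 6 letters alone, purple points to TCACGTGA and the orange point, in Cln3 alone, to the longest form; Lamp1 has 4 points.

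Between 8910724 and 16631614 counts on genes were obtained per library. T0 replicate 3 stood apart from the other T0 libraries. Its counts differed from theirs by a chi-square of 96.4 and 99.9 per gene, against 3.17 between T0 replicates 1 and 2 and 5.13 to 32.4 between the libraries of the other groups, and it had the lowest share of reads outside genes (13.3%, against 17.6% to 24.1%). This touches the lysosomal genes: T0 replicate 3 was the lowest of the 3 T0 libraries for 24 of the 30 genes tested, against 46.1% of 12364 genes, and its level was a median 0.727 times the mean of the other T0 libraries, against 1.0 over all genes. The ratio ran from 0.221 for Ctsf to 1.19 for Glb1. Calls against T0 that were gained or lost without this library are therefore given too, and its part in the results beyond these values was not tested.

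Neuron and proliferation markers moved with the labelled cell states from T0 to T1 and T2, and fewer of them were called at T3. The marker counts here and in the next paragraph are to be read against the shares over all genes. These were 15.1% higher and 16.8% lower at T1, 21.4% and 21.8% at T2, and 3.31% and 1.41% at T3. All 5 neuron markers tested were higher at T1 and at T2 (Dcx by 6.06 on the log2 scale at T2, edgeR adjusted p = 8.2e-05; Gad1, which makes GABA, by 4.25, edgeR adjusted p = 8.9e-05), and 2 of 6 at T3. All 4 proliferation markers were lower at T1 and T2 and 1 of 4 at T3. Their summed level was 1175 to 1796 CPM (counts on a gene relative to the library total, as given below) at T0, between 65.0 and 171 at T1, between 95.3 and 215 at T2, and 371 and 642 at T3. The labels give proliferation as much reduced at T1 and absent at T2. This level was not lower at T2 than at T1, and it was higher again at T3. The neuron markers summed to 893 to 965 CPM at T0, between 2060 and 2609 at T1, and between 2030 and 2588 at T2. The T3 libraries differed, at 2725 CPM in replicate 1 and 1696 in replicate 4. T3 replicate 4 also had the higher proliferation level, 642 CPM. The part of this difference in the T3 results was not tested. Of 5 progenitor markers, 1 was lower at T1, 2 at T2 and none at T3 (Hes5 by -1.81 and Vim by -0.57 on the log2 scale at T2, edgeR adjusted p = 0.0019 and 0.0067), and Nes and Sox2, which mark neural stem cells, were not called. Microglia are rich in lysosomes, and 12 of their 13 markers had at most 3 counts in every library, C1qa, C1qb, C1qc and Tyrobp being at 0. The summed level of the 13 was 3.84 to 7.29 CPM over all libraries, most of it Cd68, which is also a lysosomal membrane protein and was higher at T2 alone (log2 0.67, edgeR adjusted p = 0.029). The 8 endothelial and mesenchymal markers summed to 1.49 to 3.23 CPM, with 5 of them at most 3 counts in every library.

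Astrocyte markers summed to 2782 to 4538 CPM at T0, between 3370 and 3987 at T1, between 3018 and 4052 at T2, and 2893 and 2590 at T3, and of 8 tested 2 were lower at T2 (Aldh1l1 by -1.11 and Gja1 by -0.70 on the log2 scale, edgeR adjusted p = 0.038 for both) and none was called at T1 or T3. T0 replicate 3 held the lowest T0 level of this list, and without it 4 of 8 were lower at T1, 4 lower and 1 higher at T2, and 6 lower and 1 higher at T3. Oligodendrocyte lineage markers summed to 3184 to 3621 CPM at T0, between 3973 and 4242 at T1, between 3965 and 4539 at T2, and 5013 and 5961 at T3, most of it Olig1 and Olig2, and 1 of 6 was higher at T1, 3 of 7 at T2 (Mog by 3.07, edgeR adjusted p = 0.008; Pdgfra by 3.02, edgeR adjusted p = 0.0039) and none at T3. Without T0 replicate 3, 3 of 8 oligodendrocyte lineage markers were higher and 1 lower at T1, 5 and 1 of 8 at T2, and 4 and 1 of 7 at T3. In the same fits 1 progenitor marker was higher and 2 lower of 5 at T1, 2 were lower at T2 and 1 at T3, and at T3 4 of 6 neuron markers were higher and 2 of 4 proliferation markers lower. With all libraries, 25% of astrocyte markers were lower at T2. Of progenitor markers, 20% were lower at T1 and 40% at T2. Of oligodendrocyte lineage markers, 16.7% were higher at T1 and 42.9% at T2. Over all genes without T0 replicate 3, 25.2% were higher and 24.9% lower at T1, 26.7% and 25.3% at T2, and 9.94% and 8.49% at T3. Neuron and proliferation markers thus moved with the time points at T1 and T2. The shares of the other lists rest on few genes, and some were close to those of all genes. The part of all these markers in the lysosomal results was not tested.

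Compared per transcript length, the lysosomal genes spanned a wide range of levels, with the same 3 genes leading at T0 and at T2. At T0 the mean FPKM (fragments per length of transcript and per total of mapped fragments) was highest for Psap, the precursor of the saposins that present lipids to their hydrolases, at 279 ± 30.5 (SD, n = 3), followed by Lamp1 at 198 ± 22.3, Ctsd at 146 and Grn at 122. At T2 Psap stood at 358 FPKM, Lamp1 at 279, Ctsd at 209 and Lamp2 at 122. The lowest levels at T0 were those of Idua at 4.25 FPKM, Cln3 at 2.65 and Ctsz at 0.0672. Ctsz, a carboxypeptidase of the cathepsin family, had 1 to 8 counts per library and was the only one of the 31 genes to fail the filter on low counts, so 30 were tested. Cln3, which encodes a membrane protein of uncertain function mutated in juvenile Batten disease, had 12 to 42 counts per library, so changes of moderate size were not detectable for it at this depth.

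**Figure D2:**
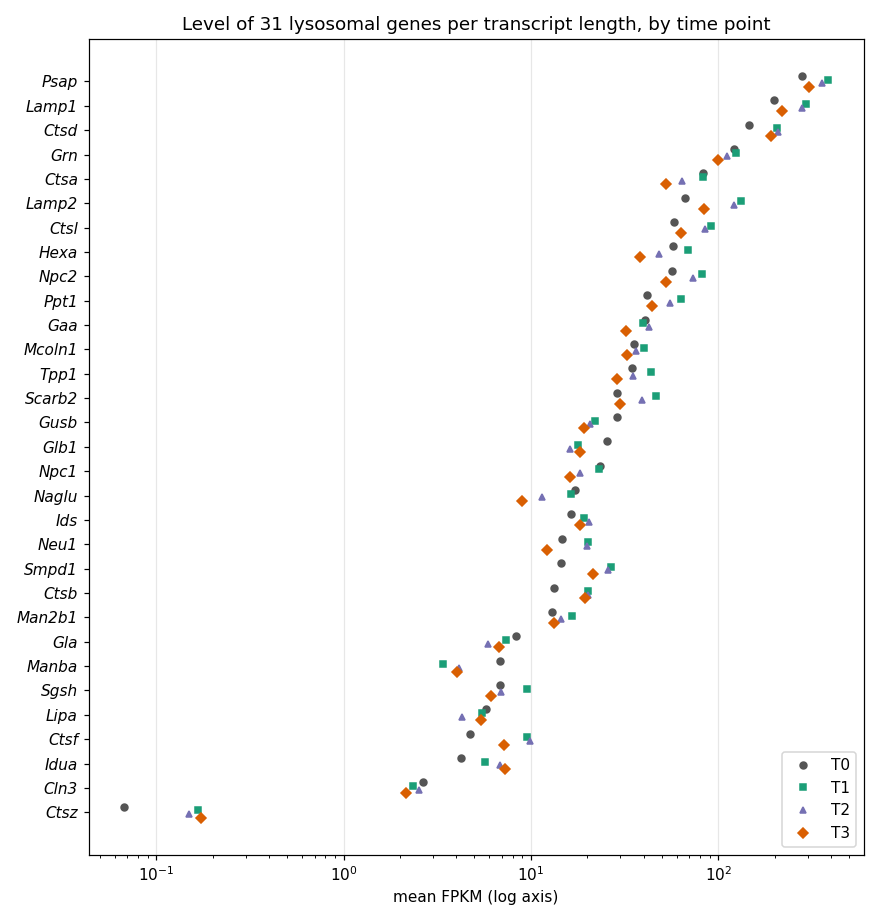
Mean FPKM of the 31 lysosomal genes on a log axis, in the order of their T0 level; grey circles are T0 (n = 3), green squares T1 (n = 3), purple triangles T2 (n = 4) and orange diamonds T3 (n = 2). Psap is highest at each time point and Ctsz lowest.

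More of the lysosomal genes rose than fell in the differentiating cells at T1 and T2. At T1, 10 of the 30 genes tested were higher than at T0 (33.3%, against 15.1% of 12364 genes) and 2 were lower (6.67%, against 16.8%). At T2, 13 were higher (43.3%, against 21.4% of 12607 genes) and 2 lower (6.67%, against 21.8%). The median log2 fold change of the 30 was 0.38 at T1 and 0.32 at T2, and that of all genes tested -0.0082 and 0.0023. Changes were small, the largest rise of a gene past the threshold being 0.96 on the log2 scale. Fewer cells of a type and less RNA per cell cannot be told apart in such bulk samples, and the p-values measure only the spread between these libraries.

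At T3, with 2 libraries, edgeR called none of the 30 genes higher (3.31% of 12721 genes) or lower (1.41%), 5 were higher and 1 lower at an unadjusted p under 0.05 (13.7% and 12.6%), and DESeq2 called 2 higher, Ctsb and Smpd1 (8.54%), and none lower (7.41%). The median of the 30 was 0.16 at T3, and -0.01 over all genes. All T1 libraries were above all T0 libraries for 17 genes (28.6% of all genes) and below for 3 (28.0%), all T2 libraries for 16 (27.0%) and 4 (27.2%), and both T3 libraries for 14 (24.3%) and 3 (25.8%). The 3 comparisons share the T0 libraries, so they are not independent of each other.

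The summed level of the 31 genes was 4822, 4734 and 3466 CPM in the T0 libraries, 5910, 5656 and 6211 at T1, 5527, 5240, 5876 and 6528 at T2, and 4875 and 5327 at T3. Every library of the differentiating cells was above every T0 library, T3 replicate 1 by the least, and the T3 libraries overlapped those of T2. CPM here are counts in 1000000 counts on genes, scaled by the trimmed mean of M-values, and serve to compare 1 gene between libraries.

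Without T0 replicate 3, 15 genes were higher and 4 lower at T1 (25.2% and 24.9% of all genes), 14 and 6 at T2 (26.7% and 25.3%), and 3 and 2 at T3 (9.94% and 8.49%), while the median change of the 30 genes was 0.28, 0.27 and 0.08. Single differentiating libraries mattered too. Without T1 replicate 1, 2 or 3, 4 genes were higher at T1 each time (6.68%, 6.47% and 8.47% of all genes), and without T2 replicate 1 or 4, 8 genes at T2 (16.0% and 16.5%). In each of the 12 alternative fits at T1, Ctsb, Ctsl, Neu1 and Smpd1 stayed higher and neither of the lower genes stayed lower, and in each of the 13 at T2, Lamp2, Ctsb, Ids and Smpd1 stayed higher and Glb1 and Gusb lower.

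**Figure D3:**
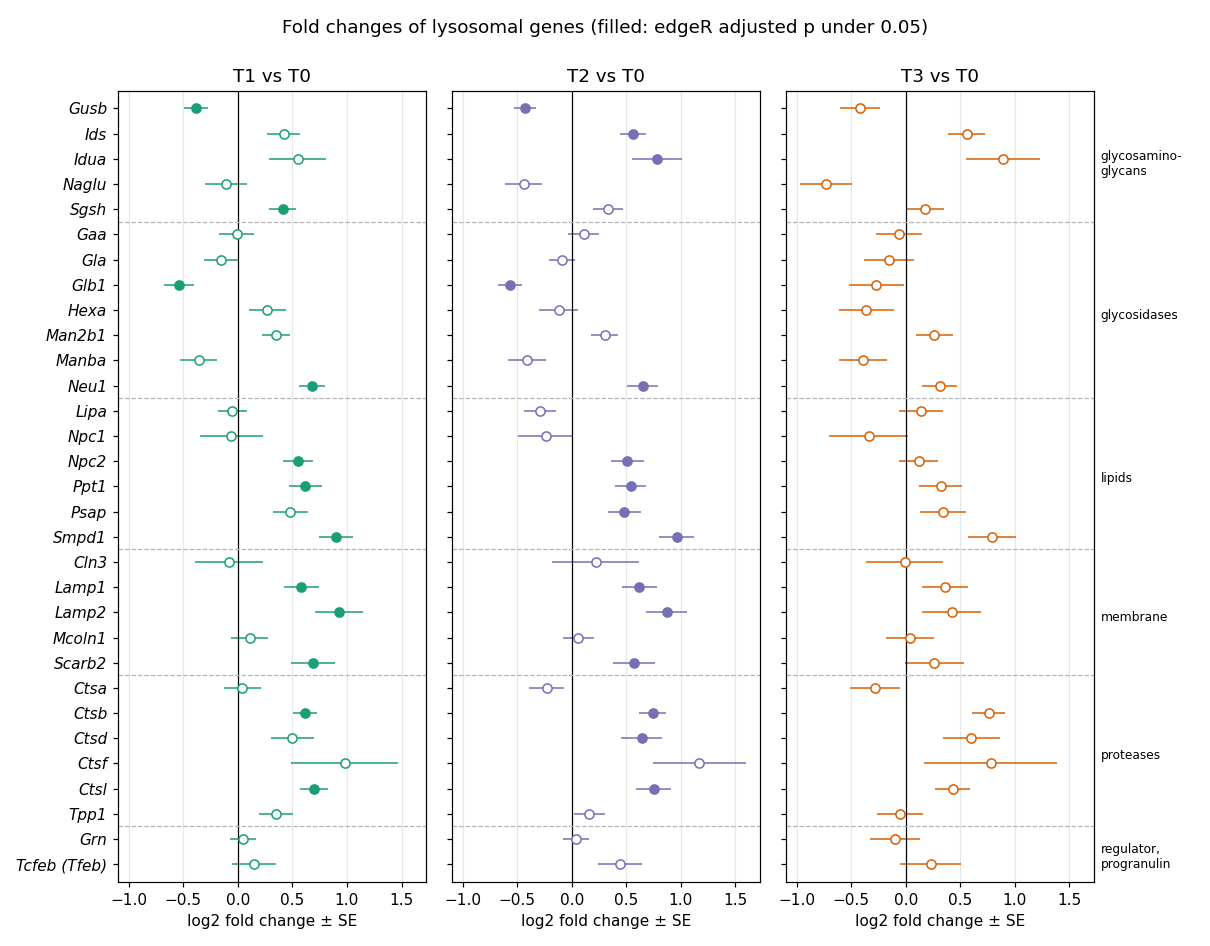
Log2 fold change ± SE (horizontal axis) of the 30 lysosomal genes tested and of Tcfeb at T1 (n = 3), T2 (n = 4) and T3 (n = 2) against T0 (n = 3), grouped by role; filled points passed the edgeR threshold of 0.05 on the adjusted p. Filled points right of 0 number 10 at T1 and 13 at T2, filled points left of 0 are Glb1 and Gusb, and T3 has no filled point.

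Of the 5 membrane proteins, 3 rose at T1 and the same 3 at T2 (60%, against 15.1% and 21.4% of all genes). These were LAMP1 and LAMP2, the most abundant glycoproteins of the lysosomal membrane, and SCARB2 (also known as LIMP2), which carries glucocerebrosidase to the lysosome. Lamp2 (chromosome X, 35754534 to 35809631 on the minus strand, NCBIM37) was at 310, 342 and 191 CPM at T0, 520, 510 and 579 at T1, 475, 490, 511 and 552 at T2, and 374 and 370 at T3. Lamp1 (chromosome 8, 13159135 to 13175338 on the plus strand) was at 632, 654 and 464 CPM at T0, 868, 807 and 946 at T1, 821, 758, 929 and 1044 at T2, and 732 and 754 at T3. For both genes every later library was above every T0 library, and the T3 libraries were below those of T1 and T2. Lamp2 was 1.90-fold higher at T1 (log2 0.93, SE 0.22, edgeR adjusted p = 0.02) and 1.82-fold higher at T2 (log2 0.87, SE 0.19, edgeR adjusted p = 0.0075). At T3 its log2 difference was 0.42 (SE 0.27, edgeR adjusted p = 0.37), short of the threshold.

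Lamp1 rose by 0.58 on the log2 scale at T1 (SE 0.16, edgeR adjusted p = 0.036) and by 0.62 at T2 (SE 0.16, edgeR adjusted p = 0.016), with 0.36 at T3 (SE 0.21, edgeR adjusted p = 0.31). Of its exonic bases, 7.85% lie in exons of another gene, Grtp1. Scarb2 was at 91.9, 96.5 and 55.9 CPM at T0, 131, 134 and 130 at T1, 112, 120, 110 and 136 at T2, and 104 and 89.1 at T3. It was thus close to even among the T1 libraries, and at T3 it overlapped T0. Its log2 difference was 0.69 at T1 (SE 0.20, edgeR adjusted p = 0.041), 0.57 at T2 (SE 0.19, edgeR adjusted p = 0.038) and 0.26 at T3 (SE 0.27, edgeR adjusted p = 0.58). Mcoln1, the calcium channel TRPML1 of the lysosomal membrane, was at 36.1 to 55.5 CPM over all 12 libraries, and neither it nor Cln3 was called at any time point.

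**Figure D4:**
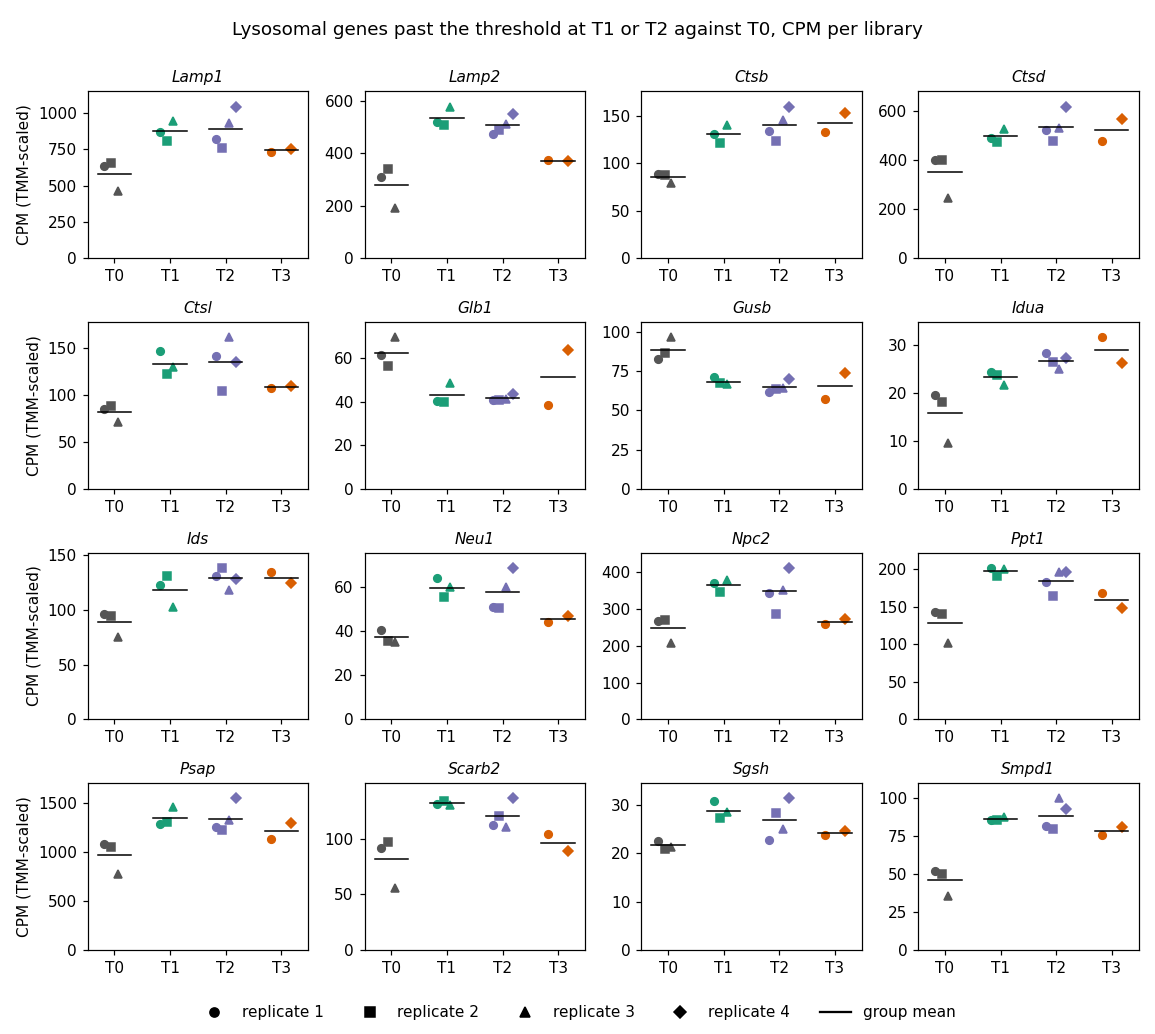
CPM per library (vertical axes, from 0) at T0, T1, T2 and T3 of the 16 lysosomal genes past the threshold at T1 or T2 against T0; the shape of a point gives the replicate number and the line the group mean. T0 replicate 3 (grey triangle) is the lowest T0 library for 13 of the 16 genes and the highest for Glb1 and Gusb. The T3 libraries of Lamp1, Lamp2, Scarb2, Neu1 and Npc2 lie below those of T1 and T2.

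Of the 6 proteases tested, 2 rose at T1 (33.3%) and 3 at T2 (50%), against 15.1% and 21.4% of all genes. Those that rose were all cathepsins that act within the lysosome. Ctsb (chromosome 14, 63741302 to 63764758), a cysteine protease, was at 89.1, 88.0 and 79.1 CPM at T0, 131, 122 and 141 at T1, 134, 124, 146 and 160 at T2, and 133 and 153 at T3. The T0 libraries were close together, T0 replicate 3 included, and no later library came near them. Ctsb rose by 0.62 on the log2 scale at T1 (SE 0.11, edgeR adjusted p = 0.0075) and by 0.74 at T2 (SE 0.12, edgeR adjusted p = 0.0015). At T3 the difference was as large, 0.76 (SE 0.15), and just short of the threshold (edgeR adjusted p = 0.051). Of its exonic bases, 16.2% lie in exons of Fdft1, so part of its counts could be uncertain.

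Ctsl, a cysteine protease like Ctsb, was at 85.8, 88.1 and 71.4 CPM at T0, 147, 123 and 130 at T1, 142, 104, 162 and 136 at T2, and 108 and 110 at T3. Its T2 libraries spread widely, from a level below both T3 libraries to the highest of all. It rose by 0.70 on the log2 scale at T1 (SE 0.13, edgeR adjusted p = 0.0082) and by 0.75 at T2 (SE 0.16, edgeR adjusted p = 0.0066), with 0.43 at T3 (SE 0.16, edgeR adjusted p = 0.16). Ctsd, the main aspartic protease of the lysosome, was at 400, 400 and 247 CPM at T0, 489, 473 and 527 at T1, 521, 475, 531 and 617 at T2, and 478 and 566 at T3. T0 replicate 3 lay far below the other T0 libraries, and the groups did not overlap T0. Ctsd was called at T2 (log2 0.64, SE 0.19, edgeR adjusted p = 0.024) and not at T1 (0.50, SE 0.20, edgeR adjusted p = 0.094) or T3 (0.60, SE 0.26, edgeR adjusted p = 0.21).

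The remaining proteases were not called at T1, T2 or T3 with all libraries. Ctsf, a further cysteine cathepsin, was at 17.1, 16.7 and 3.74 CPM at T0, 26.4, 24.7 and 23.0 at T1, 26.0, 25.8, 28.7 and 30.5 at T2, and 22.1 and 20.6 at T3. Every later library was above T0, and T0 replicate 3 was far below the others. Without that library Ctsf was called higher at T1 and T2, and Ctsa lower at T2. Tpp1, which removes tripeptides from the ends of proteins, and Ctsa, a carboxypeptidase that also protects the sialidase Neu1, were at 130 to 223 CPM and at 81.8 to 134 CPM over all libraries, with T0 overlapping T2 and T3 for both. Of the exonic bases of Ctsa, 17.4% lie in exons of other genes.

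The glycosidases, which cut sugars from glycogen, glycoproteins and glycolipids, had few calls. Of the 7 tested, 1 rose and 1 fell, at T1 and again at T2 (14.3% each way), against 15.1% and 16.8% of all genes at T1 and 21.4% and 21.8% at T2. Neu1, a sialidase, was at 40.5, 35.7 and 35.1 CPM at T0, 63.9, 55.3 and 60.1 at T1, 50.8, 50.5, 60.1 and 68.6 at T2, and 44.1 and 46.7 at T3. The T3 libraries lay between T0 and the other time points. Neu1 rose by 0.68 on the log2 scale at T1 (SE 0.12, edgeR adjusted p = 0.0073) and by 0.65 at T2 (SE 0.14, edgeR adjusted p = 0.0067), with 0.31 at T3 (SE 0.16, edgeR adjusted p = 0.29).

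Glb1, the beta-galactosidase of the lysosome, went the other way. It was at 61.3, 56.4 and 69.7 CPM at T0, 40.4, 40.1 and 48.5 at T1, 41.0, 40.8, 41.3 and 43.6 at T2, and 38.5 and 63.8 at T3. All T1 and T2 libraries were below T0, and the T3 libraries disagreed, replicate 1 being the lowest of all libraries and replicate 4 within the range of T0. Glb1 fell by 0.54 on the log2 scale at T1 (SE 0.14, edgeR adjusted p = 0.026) and by 0.57 at T2 (SE 0.11, edgeR adjusted p = 0.0039), with -0.27 at T3 (SE 0.25, edgeR adjusted p = 0.54), which turned to 0.06 without T3 replicate 1. T0 replicate 3 was the highest T0 library for Glb1, and without it the log2 difference was -0.45 at T1 and -0.48 at T2 (edgeR adjusted p = 0.0083 and 0.00098, against a highest of 0.11 and 0.037 over all alternatives). Gaa, Gla, Hexa, Man2b1 and Manba, the enzymes of glycogen, globosides, gangliosides and mannose-rich chains, were not called at any time point with all libraries. Without T0 replicate 3, Manba was called lower at T1 and T2 and Man2b1 higher at T1. With all libraries their log2 differences from T0 lay between -0.41 and 0.35, Man2b1 being above T0 in every T1, T2 and T3 library and Manba below it in every one.

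Of 5 enzymes of glycosaminoglycan breakdown, 1 rose and 1 fell at T1 (20% each way), and 2 rose (40%) and 1 fell (20%) at T2. Over all genes 15.1% were higher and 16.8% lower at T1, and 21.4% and 21.8% at T2. Shares of so few genes, here and in the other roles, are coarse. Idua, the iduronidase, was at 19.7, 18.2 and 9.66 CPM at T0, 24.4, 23.9 and 21.7 at T1, 28.3, 26.5, 25.1 and 27.3 at T2, and 31.7 and 26.4 at T3. Ids, the iduronate sulfatase, which acts on heparan and dermatan sulfate like Idua, was at 96.0, 93.9 and 75.2 CPM at T0, 122, 131 and 102 at T1, 131, 138, 118 and 128 at T2, and 134 and 124 at T3. For both genes every later library was above T0, and T3 overlapped T2. Idua was called at T2 (log2 0.78, SE 0.23, edgeR adjusted p = 0.026), and stood at 0.55 at T1 (SE 0.26, edgeR adjusted p = 0.15), short of the threshold, and at 0.89 at T3 (SE 0.34, edgeR adjusted p = 0.17). Ids was called at T2 (log2 0.56, SE 0.12, edgeR adjusted p = 0.0062), and not at T3 (0.56, SE 0.17, edgeR adjusted p = 0.11) or T1 (0.42, SE 0.15, edgeR adjusted p = 0.069).

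Sgsh, the heparan sulfamidase, was at 22.6, 20.9 and 21.2 CPM at T0, 30.7, 27.2 and 28.5 at T1, 22.8, 28.2, 24.9 and 31.3 at T2, and 23.8 and 24.6 at T3. T2 replicate 1 and both T3 libraries lay just above T0. Sgsh was called at T1 (log2 0.41, SE 0.12, edgeR adjusted p = 0.043), with 0.33 at T2 (SE 0.14, edgeR adjusted p = 0.085) and 0.18 at T3 (SE 0.17, edgeR adjusted p = 0.54). Of its exonic bases, 21.6% lie in exons of Card14. Gusb, the beta-glucuronidase, was at 82.5, 86.2 and 96.4 CPM at T0, 70.8, 67.0 and 66.6 at T1, 61.5, 63.2, 64.4 and 69.8 at T2, and 57.3 and 73.4 at T3, each later library being below each T0 library. It fell by 0.38 on the log2 scale at T1 (SE 0.11, edgeR adjusted p = 0.039) and by 0.43 at T2 (SE 0.10, edgeR adjusted p = 0.0096), with -0.42 at T3 (SE 0.18, edgeR adjusted p = 0.21). Naglu, the N-acetylglucosaminidase of heparan sulfate, was not called in these fits. It was at 58.9, 53.0 and 38.2 CPM at T0, 46.5, 39.5 and 53.2 at T1, 33.8, 33.2, 34.2 and 44.2 at T2, and 28.7 and 31.0 at T3. Both T3 libraries were below all others, and without T0 replicate 3, which was the lowest at T0, Naglu was called lower at T2 and T3.

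Of the 6 genes of lipid handling, 3 rose at T1 (50%) and 4 at T2 (66.7%), against 15.1% and 21.4% of all genes. With all libraries none fell, against 16.8% and 21.8%. Smpd1 (chromosome 7, 112702874 to 112706902 on the plus strand), the acid sphingomyelinase, was at 52.1, 50.1 and 35.2 CPM at T0, 85.2, 85.1 and 87.3 at T1, 81.3, 79.5, 99.5 and 92.6 at T2, and 75.5 and 80.9 at T3. The gap between T0 and all later libraries was wide, and T3 stayed near T1 and T2. The change was 1.87-fold at T1 (log2 0.90, SE 0.16, edgeR adjusted p = 0.0078), 1.95-fold at T2 (0.96, SE 0.16, edgeR adjusted p = 0.002) and 1.72-fold at T3 (0.79, SE 0.22, edgeR adjusted p = 0.091). Ppt1, the thioesterase that takes palmitate off proteins, was at 143, 141 and 102 CPM at T0, 202, 191 and 201 at T1, 183, 164, 197 and 196 at T2, and 169 and 149 at T3. Every later library was above T0. Ppt1 rose by 0.62 on the log2 scale at T1 (SE 0.15, edgeR adjusted p = 0.022) and by 0.54 at T2 (SE 0.14, edgeR adjusted p = 0.016), with 0.32 at T3 (SE 0.20, edgeR adjusted p = 0.36).

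The partner proteins of cholesterol export, NPC2 in the lumen and NPC1 in the membrane, differed. Npc2 was at 266, 269 and 207 CPM at T0, 369, 345 and 378 at T1, 344, 286, 350 and 411 at T2, and 258 and 273 at T3. It was above T0 in every T1 and T2 library, and at T3 it overlapped T0. Npc2 rose by 0.55 on the log2 scale at T1 (SE 0.14, edgeR adjusted p = 0.023) and by 0.51 at T2 (SE 0.15, edgeR adjusted p = 0.027), with 0.12 at T3 (SE 0.18, edgeR adjusted p = 0.71). Npc1 was at 207, 204 and 93.1 CPM at T0, 167, 166 and 153 at T1, 145, 140, 132 and 144 at T2, and 131 at both T3 libraries. All later libraries lay between T0 replicate 3 and the other T0 libraries, so the call and the size of the change for Npc1 depend on that library. The gene was not called with it and was called lower at T1, T2 and T3 without it. The log2 difference was negative at each time point in both cases.

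Psap was at 1081, 1049 and 777 CPM at T0, 1285, 1307 and 1464 at T1, 1254, 1226, 1331 and 1549 at T2, and 1135 and 1294 at T3, with no overlap between T0 and the later libraries. It was called at T2 (log2 0.48, SE 0.15, edgeR adjusted p = 0.033), narrowly missed the threshold at T1 with the same difference (0.48, SE 0.16, edgeR adjusted p = 0.063), and not at T3 (0.34, SE 0.21, edgeR adjusted p = 0.36). Lipa, the acid lipase that frees cholesterol from its esters, was at 14.3 to 27.3 CPM over all libraries and was not called. Grn, whose product progranulin is secreted and also works in the lysosome, was at 211, 193 and 197 CPM at T0, 201, 190 and 233 at T1, 182, 187, 211 and 236 at T2, and 143 and 226 at T3. Grn overlapped T0 at each time point and was not called.

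Group means show the course over time. Over the 30 genes tested, the highest of the 4 group means was that of T0 for 6 genes (Gla, Glb1, Gusb, Manba, Naglu and Npc1), T1 for 13, T2 for 7 and T3 for 4 (Ctsb, Idua, Ids and Lipa), against 42.9%, 23.8%, 16.3% and 17.0% of 12364 genes. The lowest was T0 for 17 genes, T1 for 1, T2 for 4 and T3 for 8 (39.3%, 19.4%, 21.3% and 20.1%). Neighbouring time points differed little beyond the spread of the libraries. Between T1 and T2 edgeR called none of the 30 genes (0.573% of 12382 genes higher, 0.0565% lower), as did DESeq2 (1.99% and 0.565%), and 1 was higher and 5 lower at an unadjusted p under 0.05 (7.43% and 4.23%). All T2 libraries were above all T1 libraries for 1 gene (Idua, 6.4% of all genes) and below for 4 (Hexa, Lipa, Npc1 and Tpp1, 5.85%), and the median change of the 30 was -0.05, against -0.0039 over all genes.

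The labels state no pairing, and same-numbered T1 and T2 libraries were taken as paired from their correlations in these same data. With the number as a block, T2 replicate 4 was left out. In that fit 2 of 30 genes were lower at T2 than at T1 (0.383% of 12264 genes) and none higher (1.32%). They were Hexa, the alpha chain of the enzyme that degrades GM2 ganglioside, at -0.49 (SE 0.07, edgeR adjusted p = 0.029), and Ctsa at -0.36 (SE 0.06, edgeR adjusted p = 0.034), and are named after their values were seen. The adjusted p of the other fits reached 0.79 for Hexa and 0.93 for Ctsa, and none of those fits called either gene. Hexa was at 175, 156 and 170 CPM at T1 and at 118, 103, 136 and 148 at T2, with every T2 library below every T1 library. Ctsa was at 119, 108 and 120 CPM at T1 and at 94.8, 81.8, 92.5 and 108 at T2, where the groups met.

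Between T2 and T3 edgeR called none of the 30 genes (0.5% of 12599 genes higher, 0.691% lower), 1 was higher and 5 lower at an unadjusted p under 0.05 (9.45% and 7.57%), and DESeq2 called 1, Lamp2, lower (2.58%) and none higher (3.49%). Both T3 libraries were below all T2 libraries for 9 genes (12.1% of all genes) and above for 1 (13.6%), and the median change was -0.15, against 0.0066 over all genes. Lamp2 had the largest fall, of 0.45 on the log2 scale (SE 0.11, edgeR adjusted p = 0.078, 0.0021 to 0.34 over the alternatives). Proliferation markers were higher in both T3 libraries than in any T1 or T2 library, as given above, and their part in these differences was not tested.

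Tfeb, listed as Tcfeb, was expressed at a low level. It was at 6.08, 5.58 and 7.62 CPM at T0, 7.50, 6.65 and 7.32 at T1, 9.08, 6.94, 9.92 and 8.54 at T2, and 7.20 and 7.75 at T3. T0 replicate 3 was the highest at T0 and lay above all T1 libraries, and the T0 libraries overlapped each later group. Its log2 difference was 0.15 at T1 (SE 0.20, edgeR adjusted p = 0.59), 0.44 at T2 (SE 0.20, edgeR adjusted p = 0.11) and 0.23 at T3 (SE 0.28, edgeR adjusted p = 0.63). Without T0 replicate 3 it was 0.58 at T2 (edgeR adjusted p = 0.025, 0.025 to 0.28 over the alternatives). Of the relatives of TFEB, Tfe3 (listed as Tcfe3) was at a mean of 47.6 CPM at T0, Mitf at 4.10 CPM, and Tfec (listed as Tcfec) was at 0 in every library. Of these, Tcfeb, Tcfe3 and Mitf were tested and none was called. Levels of mRNA do not show where in the cell these factors are, by which they are mainly controlled.

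The lists that follow are to be read against the shares over all genes, 15.1% higher and 16.8% lower at T1 and 21.4% and 21.8% at T2. In the wider list of these factors and of the mTORC1 pathway at the lysosome, 3 of 24 genes were higher at T1 (12.5%) and 6 at T2 (25%) and none was lower, the largest rises at T2 being those of Fnip1 (0.93, edgeR adjusted p = 0.013) and Flcn (0.75, edgeR adjusted p = 0.019), partners in the folliculin complex that acts on the Rag GTPases. T0 replicate 3 was low for Fnip1 (718 counts, against 1300 and 1562 in T0 replicates 1 and 2) and Flcn (916, against 1502 and 1627). The V-ATPase, which acidifies the lysosome, had the highest share of called genes of these lists. Of 18 subunits tested, 13 were higher at T1 (72.2%) and 15 at T2 (83.3%), none was lower, and the median log2 difference was 0.44 at both. All 18 were above 0 at T1, T2 and T3. At T3 none was called (3.31% of all genes higher), and the median was 0.46. At an unadjusted p under 0.05, 13 of 18 were higher at T3, against 13.7% of all genes. Without T0 replicate 3, 7 were called higher at T3 (38.9%, against 9.94% of all genes). T0 replicate 3 was close to the other T0 libraries in the summed level of the V-ATPase (1772 CPM, against 1854 and 1839), and the T1 libraries lay between 2377 and 2515 CPM, those of T2 between 2299 and 2720, and those of T3 at 2509 and 2341. The largest rises at T2 were those of Atp6v1g2 and of the low-level Tcirg1. Atp6v1g2, the neuronal form of the G subunit, rose by 2.25 on the log2 scale (edgeR adjusted p = 0.0023). Tcirg1 rose by 1.72 (edgeR adjusted p = 0.0042). T0 replicate 3 was low for Atp6v1g2 (17 counts, against 61 and 51 in T0 replicates 1 and 2) and Tcirg1 (13, against 21 and 23).

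Of 26 other hydrolases and cofactors tested, 2 were higher and 2 lower at T1 (7.69% each way), and 5 higher (19.2%) and 3 lower (11.5%) at T2, which is below the shares over all genes. Among them were Gm2a, the GM2 activator (1.46, edgeR adjusted p = 0.016), Ctso (0.90, edgeR adjusted p = 0.022), Aga, which splits the bond of sugar to asparagine (-0.69, edgeR adjusted p = 0.0023), and Hyal2, a hyaluronidase (-0.60, edgeR adjusted p = 0.0093). The median of the 26 was 0.04 at T1 and 0.16 at T2. T0 replicate 3 was low for Gm2a (764 counts, against 2588 and 2651 in T0 replicates 1 and 2) and Ctso (231, against 442 and 500). It was high for Hyal2 (1150, against 840 and 892). The further hydrolases Ctsc, Ctsh, Ctss and Acp5 had at most 3 counts in every library. Of 17 other lysosomal membrane proteins, 2 were higher at T1 (11.8%) and 7 at T2 (41.2%) and none was lower. They were led by Slc36a1, a carrier of amino acids (0.94, edgeR adjusted p = 0.0083), and Ctns, the cystine carrier (0.78, edgeR adjusted p = 0.043). T0 replicate 3 was low for both, with 554 counts for Slc36a1 against 958 and 999 in T0 replicates 1 and 2, and 435 for Ctns against 959 and 1008.

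Of 10 genes of mannose 6-phosphate tagging and sorting, 2 were higher (20%) and 1 lower (10%) at T1, and 3 higher (30%) and 1 lower (10%) at T2. Sorl1, a sorting receptor of neurons, rose by 2.91 on the log2 scale at T2 (edgeR adjusted p = 0.00087) from a mean of 0.804 CPM at T0 to 6.11, and Gga3, an adaptor of the sorting receptors, by 0.56 (edgeR adjusted p = 0.012). Igf2r, the large mannose 6-phosphate receptor, fell by 1.46 (edgeR adjusted p = 0.022) from a low mean of 9.41 CPM to 3.41. T0 replicate 3 raised that T0 mean, with 233 counts of Igf2r against 69 and 95 in T0 replicates 1 and 2. Of 23 autophagy genes, 10 were higher at T1 (43.5%) and 13 at T2 (56.5%) and none was lower, with medians of 0.41 and 0.37. Gabarapl1, a protein of the autophagosome membrane, rose by 1.53 at T2 (edgeR adjusted p = 0.00073) and Optn, an autophagy receptor, by 1.28 (edgeR adjusted p = 0.0039). T0 replicate 3 was low for the autophagy list as well (1955 CPM summed, against 2846 and 2845), and without it 14 genes were higher at T1 and at T2. Without that library, where 25.2% of all genes were higher and 24.9% lower at T1, and 26.7% and 25.3% at T2, 7 of the other hydrolases were higher and 3 lower at T1, and 6 and 4 at T2. In the same fits 8 of the other membrane proteins were higher at T1 and none was lower, with 9 and 1 at T2, and 9 genes of the MiT/TFE and mTORC1 list were higher at T1 and none lower, with 8 and 1 at T2. At T3 they called 1 hydrolase higher and 2 lower, and 2 membrane proteins, 1 sorting gene and 2 autophagy genes higher. Of all genes, 9.94% were higher and 8.49% lower there. None of these lists had a gene called at T3 with all libraries. There 1 to 5 genes of each were higher and at most 2 lower at an unadjusted p under 0.05, the V-ATPase apart. Over all genes 13.7% were higher and 12.6% lower at that p.

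**Figure D5:**
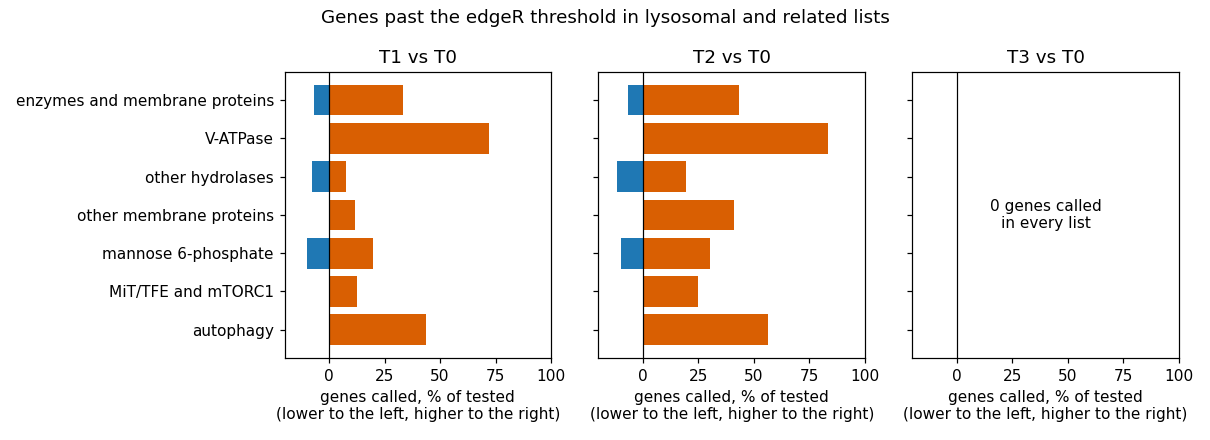
Share of tested genes (horizontal axis, percent) called higher (orange, to the right) or lower (blue, to the left) than T0 by edgeR at T1, T2 and T3, for the 30 lysosomal enzymes and membrane proteins tested and 6 related lists. The V-ATPase has the longest bars, 72.2% at T1 and 83.3% at T2, and no gene of any list was called at T3.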

How the data were processed

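Per the labels and the study's methods, polyA RNA was made into libraries with the TruSeq RNA kit, sequenced on an Illumina HiScanSQ and aligned to mm9. The submitters' processing notes name CASAVA 1.8, TopHat2 2.0.6, Bowtie 0.12.7.0, HTSeq 0.6.0 and DESeq2 1.0.0. The authors deposited raw counts per gene for each of the 12 libraries, and a table of FPKM per gene and library whose tool is not given in the sources used here. The strand setting of the counting is not given, so reads from exons shared by genes could be assigned to either or dropped. Entries naming no gene (5) were left out. They hold 13.3% to 24.1% of reads outside genes and 26% to 39% of alignments that were not unique.

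Counts were fitted with edgeR 4.0.16 in R 4.3.3 (TMM, filterByExpr, quasi-likelihood test on the libraries of the groups compared, adjusted p by Benjamini and Hochberg over all genes tested, threshold 0.05). The SE of a log2 difference is its size over the square root of the F statistic. FPKM served to compare genes, with no test. Alternatives were DESeq2 1.42.0, its size factors, no filter on low counts, 1 fit of all 12 libraries, the replicate block, the libraries numbered 1 and 2 alone, and leaving out each library. The fits were tested on simulated data. Libraries of a group differed beyond sampling noise and each was counted once. The study describes them as biological replicates. Deviations of same-numbered T1 and T2 libraries correlated across genes at 0.199, 0.341 and 0.166, so these were taken as paired. The labels state no such pairing, and T2 replicate 4 correlated at 0.37 with T1 replicate 3, a library of another number.

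The genes and lists were chosen with earlier results of these data known. Fold changes are given for genes past the threshold against T0 in at least 1 comparison and for Tfeb, and in the other lists for at most 2 called genes each with the largest rise and fall at T2. Older symbols were matched through RefSeq synonyms, gene positions come from GENCODE vM1 (NCBIM37, which is mm9) and promoters from RefSeq (GRCm38.p6). Coordinates of the 2 builds are not interchangeable. Values are limited by 8910724 to 16631614 counts per library.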

Additional observations from a re-analysis of the deposited data

Results flagged for a closer look

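For Naglu, T2 replicate 4 lay far from the other T2 libraries, at 44.2 CPM against 33.8, 33.2 and 34.2, with a gap of 0.91 of the range of the group. T2 was the only group of 4 libraries, and 31 genes were looked at in this way. Chance alone gives such a gap in about 1 of 20 groups, so 1 of 31 is no more than chance gives.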

How the results depend on the processing

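Counts of higher and lower genes refer to the 30 lysosomal genes tested (31 without a filter). At T1 (10 and 2), the libraries numbered 1 and 2 alone gave 17 and 5 (29.9% of all genes each way), 1 fit of all 12 libraries 16 higher (21.2%), and no filter 1 lower (12.2%). At T2 (13 and 2), the libraries numbered 1 and 2 alone gave 7 lower (27.4%) and 1 fit of all libraries 4 lower (24.8%). At T3 (none), DESeq2 gave 2 higher (8.54%), its size factors in edgeR 1 (3.4%), no filter 1 (4.1%), and 1 fit of all libraries 5 higher (15.4%) and 2 lower (14.4%). From T2 to T3, DESeq2 gave 1 lower. Leaving out single libraries gave 4 to 15 higher and 0 to 4 lower at T1, 8 to 15 and 2 to 6 at T2, 0 to 3 and 0 to 2 at T3, and 0 to 1 higher from T2 to T3 (1 without T3 replicate 1). For the fold changes of the 16 called genes and Tcfeb, 154 alternative values at T1 kept their side of the threshold, 36 lost the call and 14 gained it, against 191, 28 and 2 at T2 and 139, 0 and 13 at T3. In addition 1 changed sign, Glb1 at T3, which ranged from -0.69 to 0.06 (without T3 replicate 1) as single libraries were left out. Fits with fewer libraries have fewer degrees of freedom. Other causes were not tested.

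With the replicate block, 9 genes were higher (13.3% of all genes) and 1 lower (13.9%) at T1, 4 were higher at T2, close to the 12.3% of all genes, and 2 were lower from T1 to T2 (0.383%). Same-numbered libraries correlated at -0.0183, 0.121 and 0.0658 for T1 with T0, and at -0.0641, 0.0154 and -0.152 for T2 with T0. For T3 with T2 the values were -0.0153 and 0.258. Outside T1 with T2 the numbers were therefore not read as a pairing. No paired analysis was possible for T3 against T0 because the groups share 1 number in the labels. T3 replicate 1 correlated at 0.403 with T0 replicate 1, at 0.41 with T0 replicate 2 and at -0.444 with T0 replicate 3. T3 replicate 4 gave the same values with the opposite sign, as deviations from a mean of 2 libraries must. The part of this shared deviation in the T3 results was not tested. The column name of T3 replicate 4 also holds a 2, which the labels do not explain and which was not used.

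Depth limits Cln3 and Ctsz, and the 2 T3 libraries limit what can be called there. T0 replicate 3 was the lowest T0 library for 24 of the 30 genes.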

Other observations

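A list of protease inhibitors, cystatins and serpins, was looked at as well. Of 5 genes tested, 1 was higher and 1 lower at T1 and at T2 (20% each way), and none was called at T3. Over all genes 15.1% were higher and 16.8% lower at T1, 21.4% and 21.8% at T2, and 3.31% and 1.41% at T3. Without T0 replicate 3, 2 were higher (40%) and 1 lower (20%) at T1 and at T2, and 1 was higher at T3 (20%). Over all genes that fit called 25.2% higher and 24.9% lower at T1, 26.7% and 25.3% at T2, and 9.94% higher at T3. Serpini1 (neuroserpin, a protease inhibitor of neurons) was at a mean of 6.11 CPM at T0 and 14.6 at T2 (log2 1.27, edgeR adjusted p = 0.00046). Serpinb1a, which inhibits serine proteases, was at 4.15 CPM at T0 and 1.09 at T2 (log2 -1.86, edgeR adjusted p = 0.023). T0 replicate 3 had 23 counts of it, against 68 and 82 in T0 replicates 1 and 2. The summed level of the list, most of it Cst3 (cystatin C), was 881 and 924 CPM in T0 replicates 1 and 2 and 257 in T0 replicate 3, between 1060 and 1667 at T1, between 917 and 2093 at T2, and 1070 and 772 at T3. It varied more between libraries of a group than the summed level of the lysosomal genes did.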
